A study of Mus musculus with 17 samples.

Results

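Accessible chromatin regions assigned to 7 genes of the Bcl2 family of cell death regulators were followed from naive B cells through germinal center B cells to plasma cells, in mice with and without Dnmt3a and Dnmt3b, the enzymes that lay down new DNA methylation. The genes were Bcl2, Bcl2l1, Mcl1, Bcl2l11, Bbc3, Pmaip1 and Bax. A region was taken as a member when the deposited table gave one of these symbols as its nearest transcript or its nearest transcription start. That rule used no measured value, but the genes were chosen with earlier results of these data known. This gave 91 of the 66177 regions in the table. Of these, 34 belonged to Bcl2, 21 to Bcl2l11, 10 to Pmaip1, 9 to Mcl1, 8 to Bcl2l1, 7 to Bbc3 and 2 to Bax.

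Proteins of this family decide whether the outer mitochondrial membrane is breached, the step that commits a cell to apoptosis. Bcl2, Bcl-xL (the product of Bcl2l1) and Mcl1 prevent it, Bax is one of the proteins that form the pore, and the BH3-only proteins Bim (Bcl2l11), Puma (Bbc3) and Noxa (Pmaip1) tip the balance towards death by binding the guardians or the pore formers. In the B lineage, Bcl2 is a classic survival factor of resting cells, germinal center B cells are prone to apoptosis unless they are selected, and long-lived plasma cells are known to need Mcl1.

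ATAC-seq, in which a transposase cuts and tags open DNA, was performed on sorted naive B cells (nB, B220+ GL7- Fas-) and phycoerythrin (PE)-specific germinal center B cells (GCB, B220+ PE+ GL7+ Fas+) of lymph nodes, and on CD138+ bone marrow plasma cells (BMPC). Mice were 8 to 12 weeks old, nB were from unimmunized mice, and GCB and BMPC were taken 30 days after immunization with PE in complete Freund's adjuvant. Control animals (C) carried floxed Dnmt3a and Dnmt3b on both alleles and no Cre (Dnmt3afl/fl Dnmt3bfl/fl), and knockouts (KO) carried the same floxed alleles with a Cre expressed in the B lineage. The groups held 3 C and 2 KO libraries of nB, 2 C and 4 KO libraries of GCB, and 3 C and 2 KO libraries of BMPC. Each GCB library pooled 2 mice and each of the others came from 1 mouse. All nB were from males and all BMPC from females. The C GCB libraries were 1 female and 1 male, and the KO GCB libraries 3 female and 1 male. Cell type, tissue, sex and immunization thus cannot be told apart in a comparison of nB with BMPC. Nor can cell type, immunization and pooling in that of nB with GCB, or cell type, tissue and pooling in that of GCB with BMPC. Sex was also unbalanced in both of these and between the GCB genotypes. Only KO carried the Cre, so that the Cre allele and the deletion cannot be told apart, and accessibility itself gave no check of the deletion.

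Values are RPPM, the reads of a region scaled by the authors to the reads in all regions of its library, and each rested on 4104875 to 6079018 reads in nB, 907959 to 2280954 in GCB and 5357687 to 8232313 in BMPC. A count of 3 reads corresponded to 0.494 to 0.731 RPPM in nB, 1.32 to 3.30 in GCB and 0.364 to 0.560 in BMPC, so low regions were least precise in GCB. The share of reads on the mitochondrial chromosome was 3.10 to 4.59% in nB, 7.43 to 10.1% in GCB and 2.56 to 3.12% in BMPC. Start regions of lineage genes marked nB and BMPC: in C means, Fcer2a (CD23, a follicular B cell marker) had 42.4, 14.3 and 1.20 RPPM in nB, GCB and BMPC, and Tnfrsf17 (the plasma cell receptor BCMA) had 0.390, 1.35 and 20.0. The start of Bcl6, the germinal center repressor, went against its cell type with 53.8, 20.0 and 30.0 RPPM. Of 5 T cell markers, Cd3e and Cd4 had a region, upstream of the gene and not over its start, and these summed to 3.35 to 4.90 RPPM in C nB, 11.2 to 12.8 in C GCB and 14.6 to 19.2 in C BMPC. The rise was at Cd4 (C means of 0.867, 11.3 and 15.9), while Cd3e was lower in GCB and BMPC (3.02, 0.660 and 0.538). The study's staining panels included CD90.2, a T cell antigen, among the antibodies used to remove unwanted cells. The part of T cells in the results below was not tested. In such bulk samples, fewer cells with an open region and less opening per cell cannot be told apart.

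The C cell types differed at many regions of the family, as they did elsewhere in the genome. A region was called where limma gave an adjusted p ≤ 0.01 together with a change of 1 or more log2 units in either direction, on log2(RPPM + 1). From nB to GCB, 28 of 91 regions were called (30.8%, against 22.7% of all regions), from nB to BMPC 40 (44.0%, against 38.1%), and from GCB to BMPC 33 (36.3%, against 30.4%). From nB to GCB 12 were higher and 16 lower (14.2% and 8.47% of all regions), from nB to BMPC 17 were higher and 23 lower (18% and 20.1%), and from GCB to BMPC 16 were higher and 17 lower (11.3% and 19.1%). At least 1 of these comparisons called 55 members, which is 60.4% of them against 51.8% of all regions. The median log2 fold change of members was -0.29 from nB to GCB, where that of all regions was 0.05, and 0.01 and 0.18 from nB and from GCB to BMPC, where all regions had 0.03 and -0.06.

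Of the 20 Bcl2 regions called with their highest mean in one cell type, 13 were highest in nB, 0 in GCB and 7 in BMPC. Bcl2l11 had 8 called regions highest in nB, 5 in GCB and 0 in BMPC, whereas Bbc3 had 0, 1 and 5. Bcl2l1 (1, 2 and 3), Mcl1 (2, 0 and 3) and Pmaip1 (1, 3 and 1) were mixed, and no Bax region was called. Of the 55 called members, 45.5% were highest in nB, 20% in GCB and 34.5% in BMPC, against 33.6%, 31.2% and 35.2% of the 34310 regions called in the whole table, so that the share in BMPC was near the background.

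**Figure D1:**
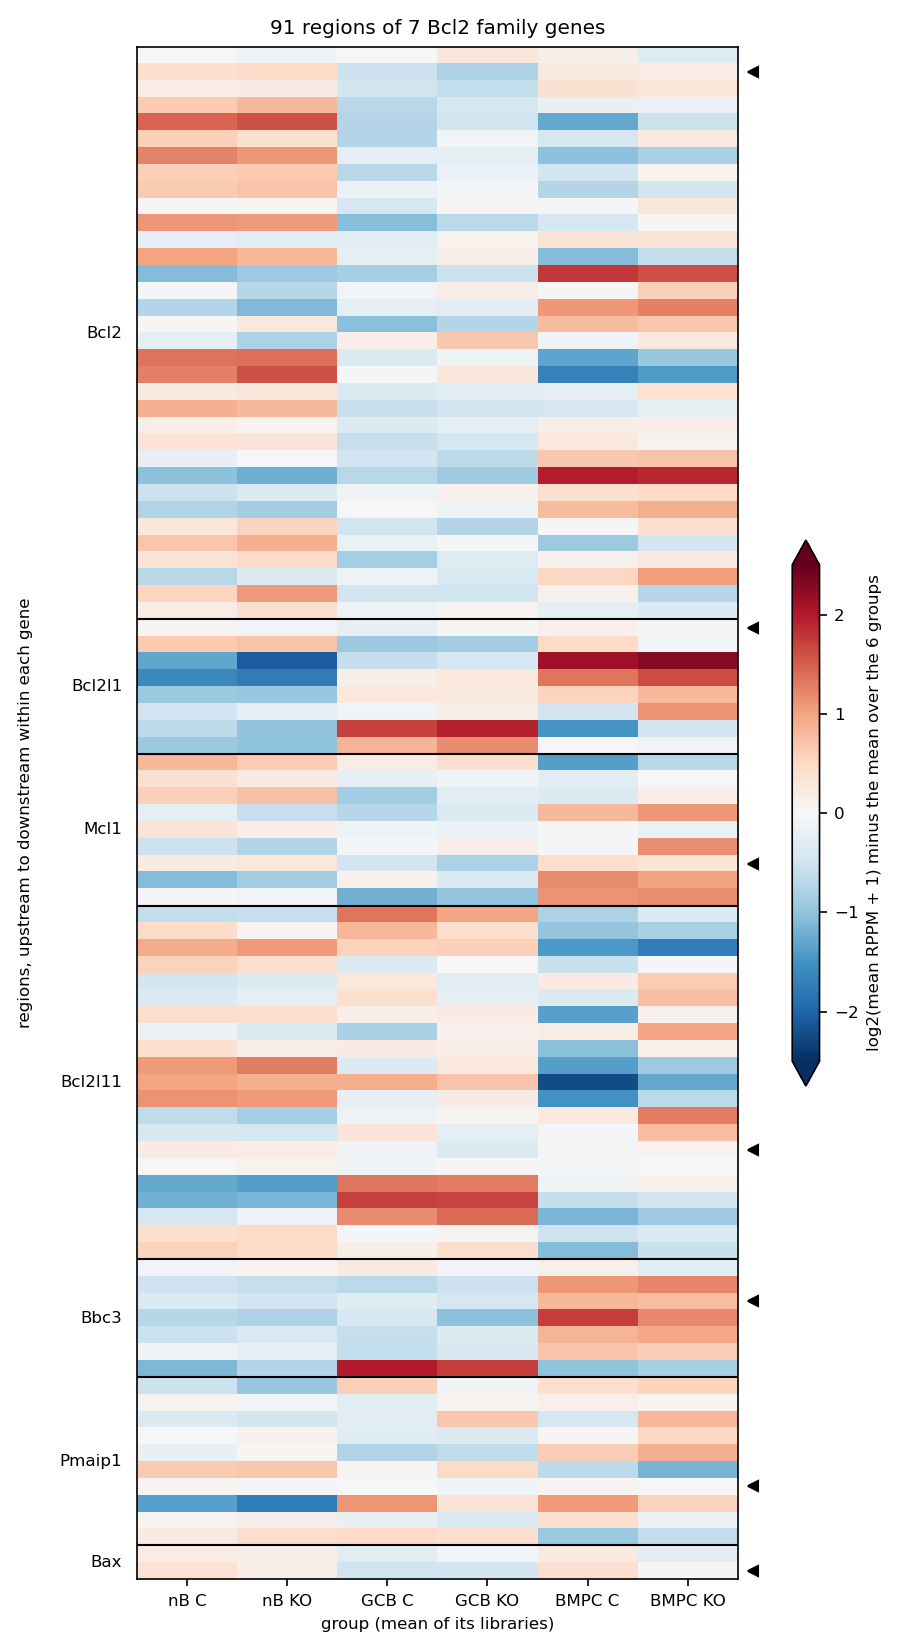
Mean accessibility of the 91 regions in the 6 groups, as log2(mean RPPM + 1) minus the mean over groups, with regions in order from upstream to downstream of each gene and triangles at the regions over the transcription starts. Bcl2 rows are mostly palest or blue in GCB, several Bcl2l11 rows are red only in GCB, and 5 Bbc3 rows are red in BMPC, while the C and KO columns differ most in BMPC, at Bcl2l11.

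The Bcl2 start (mm9 chr1:108610342-108611387, promoter, 5' UTR and exon) read 68.5, 71.6 and 71.1 RPPM in C nB, 33.4 and 39.3 in C GCB, and 57.1, 64.2 and 66.3 in C BMPC. It was lowest in GCB, whose values did not overlap those of either other cell type. The log2 fold change from nB was -0.94 (SE 0.12, adjusted p = 4.75e-07), just short of the fold needed for a call, and that from GCB to BMPC was 0.77 (SE 0.12, adjusted p = 5.83e-06). The start of Mcl1 (chr3:95462132-95463663) was also lowest in GCB, but its highest values were in BMPC and not in nB. It read 69.9, 60.5 and 74.6 RPPM in C nB, 43.1 and 42.2 in C GCB, and 76.1, 80.5 and 87.5 in C BMPC. Its GCB values were the lowest and again did not overlap the others, with log2 fold changes of -0.66 (SE 0.12, adjusted p = 9.59e-05) from nB to GCB and 0.91 (SE 0.12, adjusted p = 6.76e-07) from GCB to BMPC. Bax, the pore former, was likewise lowest in GCB, at a lower level (chr7:52721653-52722551): 33.6, 26.6 and 36.3 RPPM in C nB, 15.8 and 18.3 in C GCB, and 31.2, 35.2 and 34.1 in C BMPC. It changed by -0.87 log2 units between nB and GCB (SE 0.17, adjusted p = 0.000179). A dip in GCB was not limited to these genes. The Xbp1 start had C means of 60.8, 40.6 and 75.5 RPPM in nB, GCB and BMPC, and that of Prdm1 44.5, 31.2 and 65.6. At Mybl1, by contrast, the means were 65.2, 83.2 and 80.6. How common the dip was among all starts was not tested.

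Bbc3 was the only gene with a start region called between C cell types. Its start (chr7:16894530-16896146, promoter to intron) held 54.1, 56.9 and 54.3 RPPM in C nB, 61.1 and 53.9 in C GCB, and 124, 125 and 134 in C BMPC. Plasma cells stood above every nB and GCB library, by a log2 fold change of 1.19 from nB (SE 0.12, adjusted p = 1.25e-09) and 1.14 from GCB (SE 0.13, adjusted p = 4.32e-08), while nB and GCB overlapped. The Bcl2l1 start (chr2:152656230-152657699) was 89.2, 83.6 and 87.3 RPPM in C nB, 62.9 and 81.0 in C GCB, and 88.8, 92.9 and 90.3 in C BMPC, and was not called. The Bcl2l11 start (chr2:127951230-127952064) was not called either, at 70.6, 78.0 and 73.1, 51.9 and 67.5, and 57.1, 63.9 and 65.9 RPPM. Open DNA at the Noxa start (Pmaip1) was the most even of all, at 57.7, 55.0 and 61.0 RPPM in C nB, 51.0 and 58.6 in C GCB, and 55.8, 58.2 and 60.3 in C BMPC. The groups overlapped, and the 95% interval of its log2 change from nB to BMPC ran from -0.20 to 0.21.

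**Figure D2:**
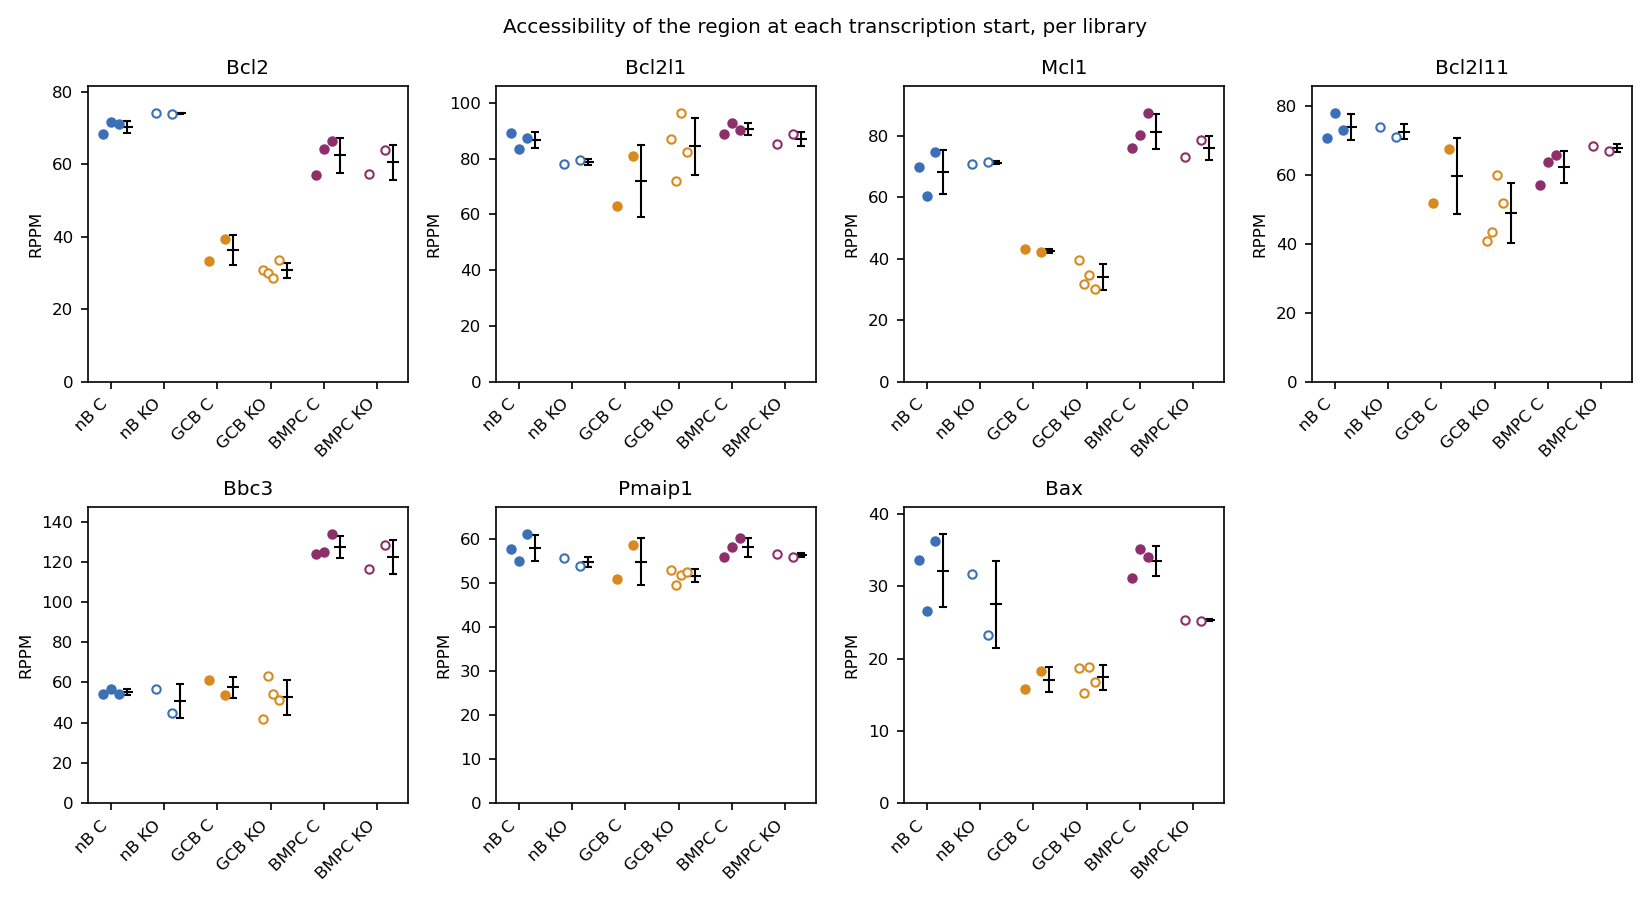
RPPM of the region over each transcription start in every library, with filled circles for C, open circles for KO, and bars for the mean ± SD of a group. GCB lie lowest at Bcl2, Mcl1 and Bax, BMPC lie highest at Bbc3 (116 to 134 RPPM), and the cell types overlap at Pmaip1.

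Per kb of region, the order of the 7 starts changed with the cell type. In C nB, Bcl2l11 led with 88.5 ± 4.47 RPPM per kb (SD, n = 3), followed by Bcl2 with 67.3 ± 1.61 and Bcl2l1 with 59.0 ± 1.91. Mcl1 with 44.6 ± 4.71 and Pmaip1 with 43.9 ± 2.29 lay within their spread, as did Bax with 35.8 ± 5.59 and Bbc3 with 34.1 ± 0.961. In C GCB, Bcl2l11 again led with 71.5 ± 13.2 (n = 2), Bbc3 with 35.6 ± 3.18 and Bcl2 with 34.8 ± 4.0 could not be ranked, and Bax was lowest with 19 ± 1.91. Puma came to the top in C BMPC, where Bbc3 with 78.8 ± 3.33 and Bcl2l11 with 74.6 ± 5.5 overlapped (n = 3), and Bax with 37.3 ± 2.30 stayed lowest.

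Among the guardians, Bcl2 had the most regions, most of them in its long intron. Distances are from the transcription start to the middle of a region, positive in the direction of transcription. From 6 to 90 kb downstream, 10 regions gave 0 called higher and 6 lower from nB to GCB, and 0 and 7 from nB to BMPC. Beyond 90 kb, 21 regions, of which 3 were intergenic, gave 0 and 5, and 5 and 4 (1 of the called was intergenic), and this dividing point was set after the values were seen. Of all regions, 14.2% were called higher and 8.47% lower from nB to GCB, and 18% and 20.1% from nB to BMPC. The region at +18.3 kb (chr1:108592262-108592857, intron) held 26.6, 29.4 and 29.4 RPPM in C nB, 5.72 and 5.15 in C GCB, and 4.55, 2.92 and 2.80 in C BMPC. It was low in GCB and stayed low in BMPC: it fell by 2.19 on the log2 scale between nB and GCB (SE 0.27, adjusted p = 3.07e-07), and the change was -0.56 from GCB to BMPC (SE 0.27, adjusted p = 0.0892). At +132.3 kb (chr1:108478292-108478796, intron) the loss came in steps, with 22.4, 23.4 and 26.1 RPPM in C nB, 10.1 and 8.43 in C GCB, and 1.43, 3.47 and 1.87 in C BMPC, and no overlap between cell types. Its log2 change was -2.98 from nB to BMPC (SE 0.22, adjusted p = 4.84e-12). In contrast, the region at +147.8 kb (chr1:108462497-108463649, intron) held 6.82, 9.23 and 8.75 RPPM in C nB, 15.8 and 5.62 in C GCB, and 70.5, 77.7 and 69.8 in C BMPC. Plasma cells stood far above both others (log2 fold change 3.00 from nB, SE 0.24, adjusted p = 2.21e-11), and the KO libraries of BMPC read 68.6 and 68.7. A further region at +95.2 kb (chr1:108515364-108515952) behaved likewise, with means of 1.53, 2.05 and 17.2 RPPM in the 3 C cell types. The intronic regions at +132.3 and +147.8 kb, 15.5 kb apart with 5 other members between them, thus changed in opposite directions from nB to BMPC. Summed over its 34 regions, Bcl2 had 480 ± 15.9 (n = 3, mean ± SD), 261 ± 17.9 (n = 2) and 449 ± 9.28 RPPM (n = 3) in C nB, GCB and BMPC.

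The plus-strand mm9 sequences of these regions are shown because they moved in opposite directions. They are the 300 bases of each region with the most matches to 5 motifs, namely that of E2A (CAGCTG), of PU.1 (GGAAGT), of IRF4 (GAAAC), of Oct-2 (ATGCAAA) and the PU.1-IRF composite, on either strand, with matches in capitals. The plasma cell region (chr1:108462735-108463034) has 6 GAAAC matches, and the naive cell region (chr1:108478472-108478771) has 1 CAGCTG, 1 GGAAGT and 1 GAAAC. The IRF4 letters are short and were found in 72.6% of all regions, at 2.64 matches per kb. The windows were picked for their matches, from regions of 1153 and 505 bases, so their counts do not compare the 2 regions. The whole plasma cell region also holds 1 CAGCTG.
Bcl2 +147.8 kb: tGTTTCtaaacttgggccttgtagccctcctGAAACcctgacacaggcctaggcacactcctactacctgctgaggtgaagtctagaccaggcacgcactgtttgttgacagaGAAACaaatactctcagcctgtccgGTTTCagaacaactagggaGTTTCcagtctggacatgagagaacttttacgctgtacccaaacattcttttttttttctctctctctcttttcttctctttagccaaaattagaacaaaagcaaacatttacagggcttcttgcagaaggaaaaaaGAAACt
Bcl2 +132.3 kb: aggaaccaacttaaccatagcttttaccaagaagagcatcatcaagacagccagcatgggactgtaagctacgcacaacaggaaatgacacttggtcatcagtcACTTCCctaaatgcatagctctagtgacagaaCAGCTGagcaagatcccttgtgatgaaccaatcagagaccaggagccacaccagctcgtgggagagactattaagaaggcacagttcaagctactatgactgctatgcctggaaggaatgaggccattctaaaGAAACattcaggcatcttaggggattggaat

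Bcl2l1 calls were mostly higher in the differentiated cell types and lay away from its start. In C, 4 of 8 regions were called higher and 1 lower from nB to GCB (14.2% and 8.47% of all regions). From nB to BMPC, 3 were higher and 0 lower (18% and 20.1%). The intronic region at +14.2 kb (chr2:152641723-152642673) held 3.17, 2.83 and 2.61 RPPM in C nB, 4.84 and 5.62 in C GCB, and 38, 42.5 and 39.9 in C BMPC. Only plasma cells were high, with a log2 fold change of 3.41 from nB (SE 0.23, adjusted p = 8.02e-13) and 2.72 from GCB (SE 0.26, adjusted p = 1.22e-09). The next region, at +17.2 kb (chr2:152638906-152639396), opened in 2 steps, with C means of 1.30, 6.78 and 16.8 RPPM. Further into the gene, the region at +36.0 kb (chr2:152619993-152620726) was open in GCB and not in the others, with 3.41, 4.14 and 3.35 RPPM in C nB, 26.8 and 18.7 in C GCB, and 1.30, 1.82 and 1.71 in C BMPC. It changed by 2.34 log2 units between nB and GCB (SE 0.25, adjusted p = 2.64e-08) and by -3.17 between GCB and BMPC (SE 0.25, adjusted p = 5.12e-11). The region at +41.2 kb, whose nearest start belongs to Cox4i2, was also highest in GCB, with C means of 6.36, 24.1 and 12.8 RPPM. The gene thus held an intronic region at its highest in plasma cells and another at its highest in germinal center cells. The window of the plasma cell region (chr2:152642035-152642334) is printed for its 2 CAGCTG and 1 GGAAGT matches, given in capitals (ACTTCC is GGAAGT on the other strand).
Bcl2l1 +14.2 kb: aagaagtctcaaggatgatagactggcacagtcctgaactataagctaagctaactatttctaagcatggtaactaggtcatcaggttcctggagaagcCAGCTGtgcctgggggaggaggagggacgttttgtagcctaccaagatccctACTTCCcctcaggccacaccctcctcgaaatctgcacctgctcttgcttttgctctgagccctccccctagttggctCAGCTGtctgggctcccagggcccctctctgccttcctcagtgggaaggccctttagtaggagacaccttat

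Mcl1, the guardian that plasma cells depend on, had 3 of 9 regions called higher and 1 lower from C nB to C BMPC. The shares of all regions were 18% and 20.1%. The intergenic region at +10.3 kb (chr3:95472470-95473336) held 26.8, 29.2 and 24.6 RPPM in C nB, 11.9 and 10.8 in C GCB, and 57.4, 65 and 62.1 in C BMPC. As at the start, GCB were lowest and BMPC highest, without overlap, and the log2 fold changes were -1.17 from nB to GCB (SE 0.17, adjusted p = 4.45e-06) and 2.34 from GCB to BMPC (SE 0.17, adjusted p = 1.52e-11). At +5.3 kb (chr3:95467681-95468161) the order differed, rising through C means of 5.30, 13.4 and 29.1 RPPM. Upstream at -14.6 kb (chr3:95447968-95448163, nearest transcript Ensa), C means fell from 4.82 to 2.70 and 0.252 RPPM, the last of which is under the level of 3 reads.

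Bcl2l11, a BH3-only gene, had called regions at their highest in nB and others at their highest in GCB. The intronic region at +27.2 kb (chr2:127978290-127979716) held 12.4, 12.1 and 15.6 RPPM in C nB, 109 and 106 in C GCB, and 26.3, 14.6 and 22.0 in C BMPC. It was the most accessible distal region of the 7 genes in GCB, and its log2 fold change was 2.92 from nB (SE 0.18, adjusted p = 5.05e-13) and -2.34 from GCB to BMPC (SE 0.18, adjusted p = 1.59e-11). The KO libraries of GCB read 122, 95.5, 102 and 106 RPPM and overlapped C. A smaller intronic region at +9.1 kb (chr2:127960763-127961074) rose from a C mean of 0.536 to 8.38 RPPM in GCB and read 2.5 in BMPC. Upstream, 14 of the 21 regions lay in introns of the neighbouring gene Acoxl, and 1 of them, at -117.1 kb (chr2:127834239-127835169), read 83.1 and 82.4 RPPM in C GCB against 20.0 to 22.2 in C nB and 17 to 19.3 in C BMPC. That region was singled out after its values were seen. The region at -31.6 kb (chr2:127919907-127920504) was instead lost in plasma cells, with 19.2, 14.5 and 14.9 RPPM in C nB, 16.3 and 14.5 in C GCB, and 1.56, 0.365 and 0.623 in C BMPC (log2 fold change -3.26 from nB, SE 0.24, adjusted p = 4.38e-12). The region at -103.3 kb was similar, with C means of 5.77, 4.26 and 0.321 RPPM, the last under the level of 3 reads. Summed over all 21 regions, Bcl2l11 had 289 ± 4.96 (n = 3, mean ± SD), 406 ± 6.29 (n = 2) and 197 ± 10.4 RPPM (n = 3) in C nB, GCB and BMPC. The middle 300 bases of the +27.2 kb region (chr2:127978853-127979152) are shown as the strongest germinal center signal of the family, with CG dinucleotides, the targets of DNA methylation, in capitals. The whole region had 27.3 CG per kb, against a median of 14.6 over all regions, but only 3 of its 39 CG lie in the printed window.
Bcl2l11 +27.2 kb: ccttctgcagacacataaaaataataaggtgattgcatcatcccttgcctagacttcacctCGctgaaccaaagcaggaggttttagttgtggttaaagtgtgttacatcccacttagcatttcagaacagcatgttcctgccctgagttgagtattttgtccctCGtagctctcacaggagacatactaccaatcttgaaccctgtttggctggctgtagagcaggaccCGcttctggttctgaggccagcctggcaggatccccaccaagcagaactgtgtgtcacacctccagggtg

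Bbc3 opened mainly in plasma cells: 4 of 7 regions were called higher and 0 lower from C nB to C BMPC, and 5 higher and 1 lower from C GCB to C BMPC. Of all regions, 18% were called higher and 20.1% lower from C nB to C BMPC, and 11.3% and 19.1% from C GCB to C BMPC. Beside its start, the intronic region at +3.5 kb (chr7:16898214-16898661) held 5.60, 9.42 and 6.70 RPPM in C nB, 7.48 and 10.8 in C GCB, and 41.6, 46 and 45 in C BMPC (log2 fold change 2.48 from nB, SE 0.23, adjusted p = 5.25e-10). The regions at -0.8 kb (promoter) and +4.4 kb (exon and intron) rose likewise, from C nB means of 8.62 and 13.9 RPPM to 28.3 and 37.7 in C BMPC. The exception was a 216-base region at +37.6 kb in an intron of Sae1 (chr7:16932408-16932623), which was open only in GCB. It had 36 reads over the 2 C GCB libraries, 1 read over the 3 of C nB and 3 reads over the 3 of C BMPC, which gave ratios of 121 (exact 95% interval 20.3 to 4900) and 53.3 (16.9 to 271) per read of depth, for counting error alone. All 6 GCB libraries read 6.14 to 9.68 RPPM and all 10 others at most 0.787. Summed over its 7 regions, Bbc3 had 112 ± 8.14 (n = 3, mean ± SD), 124 ± 6.33 (n = 2) and 276 ± 8.78 RPPM (n = 3) in C nB, GCB and BMPC. The region is printed whole because its level was nearly exclusive to 1 cell type. It holds no match to the 5 motifs.
Bbc3 +37.6 kb: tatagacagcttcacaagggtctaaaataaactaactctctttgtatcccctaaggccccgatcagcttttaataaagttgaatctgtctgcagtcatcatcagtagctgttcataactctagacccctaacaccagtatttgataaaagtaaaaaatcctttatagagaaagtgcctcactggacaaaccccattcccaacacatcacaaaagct

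The fewest calls were at Bax, with 0 of 2 regions, too few to set against the share of all regions. At Pmaip1, 2 of 10 regions were called higher and 0 lower from C nB to C GCB (14.2% and 8.47% of all regions). From C nB to C BMPC, 1 was higher and 2 lower (18% and 20.1%), so that these counts were near the background. The region over its 3' UTR exon at +6.4 kb (chr18:66624400-66624958) rose in both differentiated cell types, with 0.974, 0.942 and 0.372 RPPM in C nB, 7.48 and 9.84 in C GCB, and 7.28, 9.85 and 8.25 in C BMPC. Its log2 fold changes from nB were 2.46 (SE 0.31, adjusted p = 3.56e-07) and 2.43 (SE 0.28, adjusted p = 2.03e-08). Upstream, the region at -5.2 kb had C means of 26.6, 16.8 and 10.1 RPPM, and that at -10.7 kb was lowest in GCB and highest in BMPC, with 21.9, 14.5 and 39.0. The sums over its 10 regions stayed between 164 and 215 RPPM in every C library. The second Bax region, at -4.2 kb (nearest transcript Dhdh), read 4.84 to 10.4 RPPM in all C libraries and was not called.

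**Figure D3:**
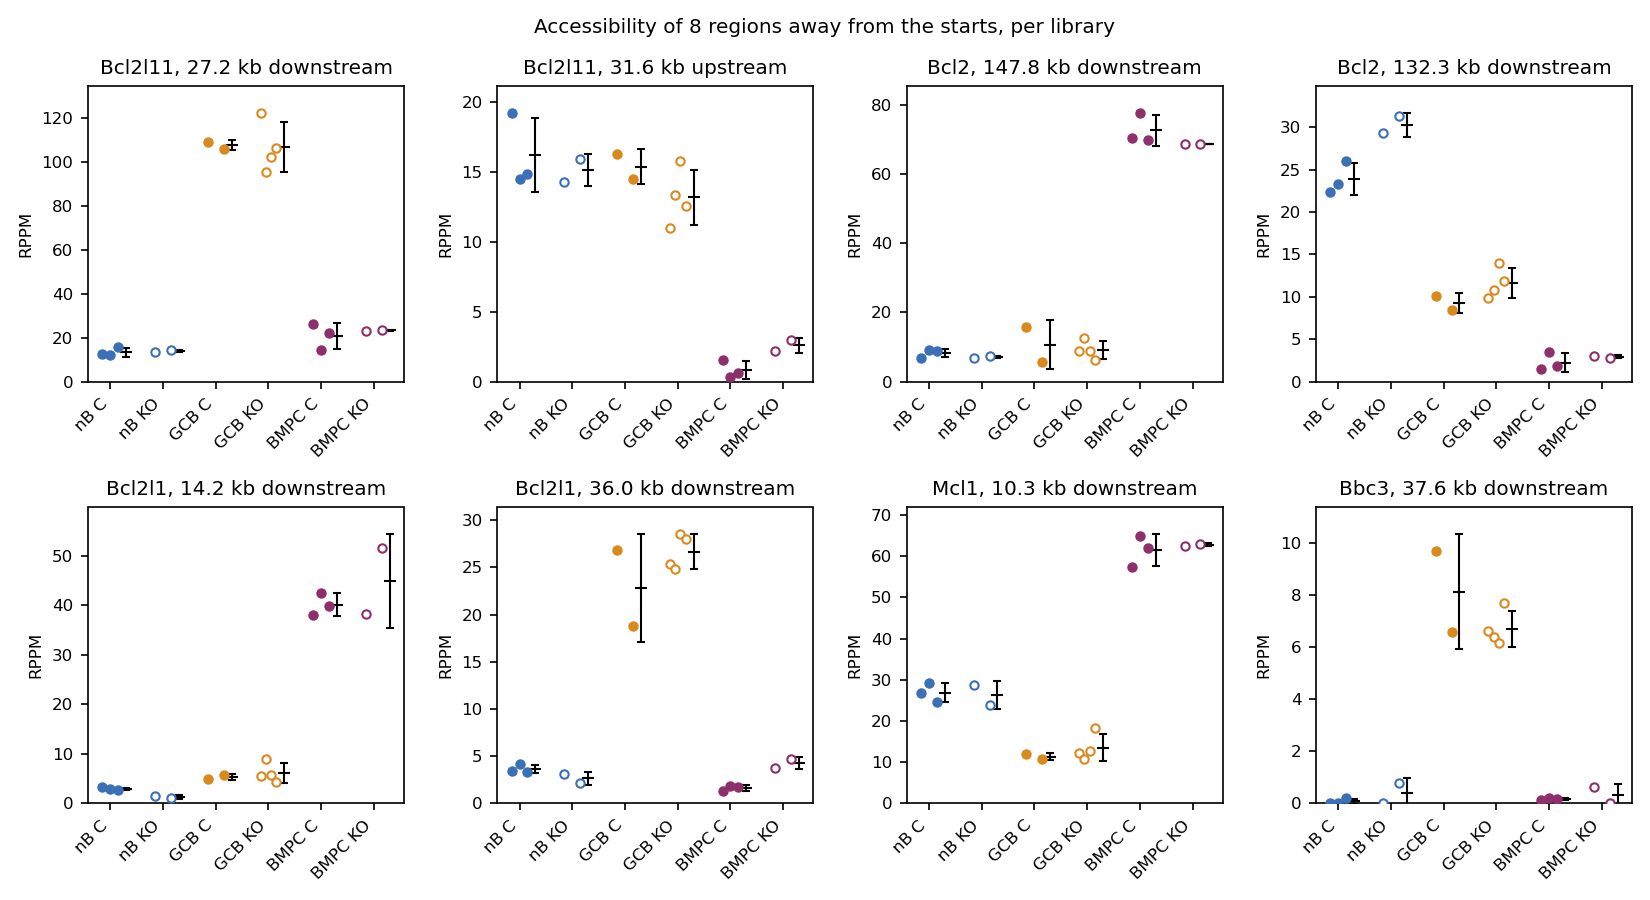
RPPM in every library of 8 distal regions that the text describes, with filled circles for C, open circles for KO, and bars for the mean ± SD of a group. Bcl2l11 +27.2 kb, Bcl2l1 +36.0 kb and Bbc3 +37.6 kb are highest in GCB, Bcl2 +147.8 kb, Bcl2l1 +14.2 kb and Mcl1 +10.3 kb are highest in BMPC, and Bcl2 +132.3 kb and Bcl2l11 -31.6 kb are lowest in BMPC.

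**Figure D4:**
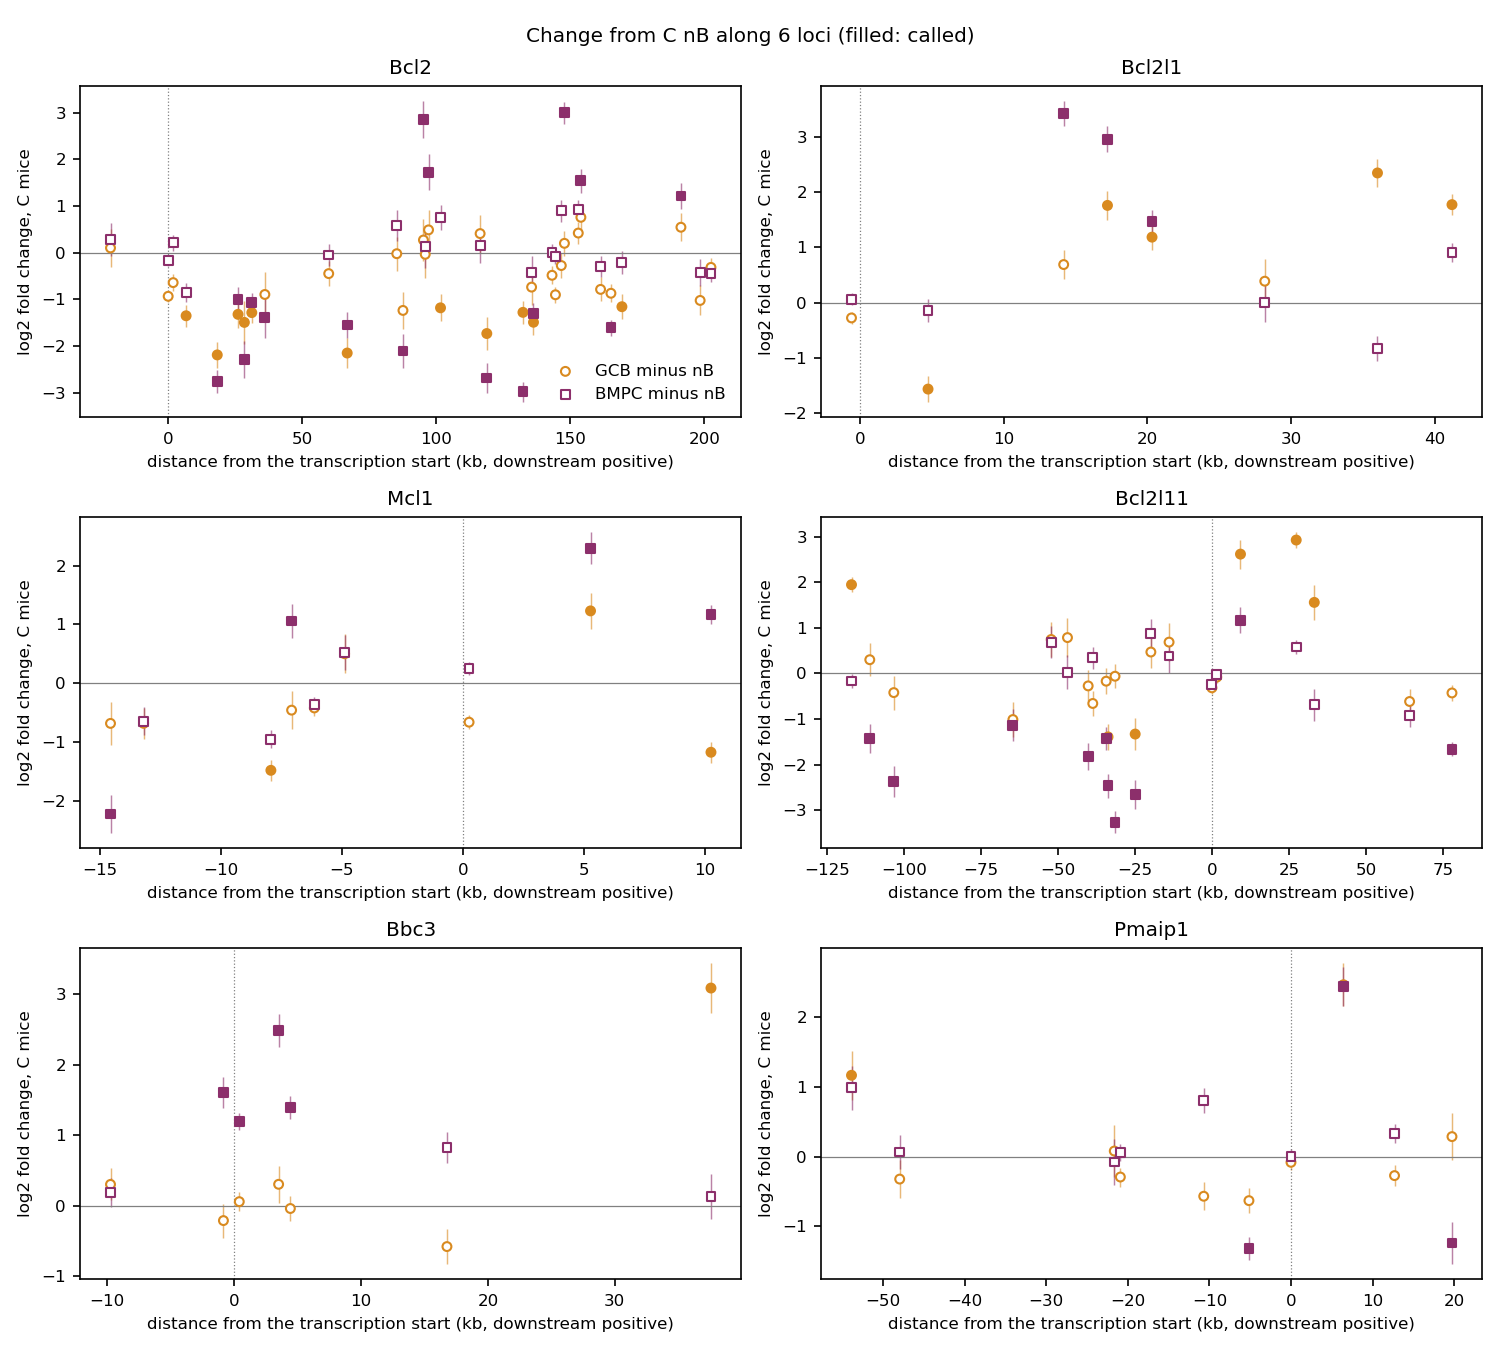
Log2 fold changes (± SE) from C nB to C GCB and from C nB to C BMPC against the distance in kb from the transcription start, for the 6 genes with more than 2 regions, with filled points for called regions. Changes of opposite sign occur along Bcl2 and Bcl2l1, most Bbc3 changes to BMPC are positive, and the Acoxl introns upstream of Bcl2l11 carry mostly negative changes to BMPC.

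The KO cell types differed at many of the same regions. In KO, 26 of 91 members were called from nB to GCB (26.3% of all regions), 36 from nB to BMPC (35.3%) and 37 from GCB to BMPC (32.0%). Calls made in both genotypes with the same sign numbered 20, 31 and 28 for the 3 comparisons, or 71.4%, 77.5% and 84.8% of the C calls and 76.9%, 86.1% and 75.7% of the KO calls, and 0 had opposite signs. The Bcl2 start, just short of a call in C, was called in KO: it read 74.2 and 74.0 RPPM in KO nB against 30.8, 29.9, 28.5 and 33.6 in KO GCB (log2 fold change -1.25, SE 0.11, adjusted p = 1.14e-09). Likewise the Mcl1 start was called in KO, with 70.9 and 71.6 RPPM in nB, 39.6, 31.8, 34.6 and 30.1 in GCB, and 73.2 and 78.8 in BMPC. A call in KO and not in C does not show a difference between genotypes, which the interaction terms test. limma called 0 members for each of the 3 interactions of genotype with cell type (0.0% of all regions each). At an unadjusted p under 0.05 they numbered 4 of 91 for nB to GCB (6.21% of all regions), 13 for nB to BMPC (5.24%) and 13 for GCB to BMPC (8.32%).

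Between genotypes, limma called no member within a cell type. In nB the count was 0 of 91 (0.0% of all regions), with 1 at an unadjusted p under 0.05 (1.67%), and edgeR's quasi-likelihood and likelihood ratio tests on the recovered reads also called 0 (0.00604% and 0.0136%). In GCB it was 0 (0.0317%), with 15 at an unadjusted p under 0.05 (11.8%), and edgeR again called 0 by either test (0.00151% and 0.0257%). In BMPC it was 0 (0.104%), but 18 members were higher and 5 lower at an unadjusted p under 0.05 (6.96% and 2.59%, together 9.55%), and edgeR called 6 by quasi-likelihood (1.96%) and 8 by likelihood ratio (2.84%), all higher in KO. A limma fit of the 2 BMPC groups alone called 1, at Mcl1 -4.9 kb (0.277%). For the interaction from nB to BMPC, edgeR called 0 by quasi-likelihood (0.0967%) and 3 by likelihood ratio (0.37%), at Bcl2 +198.4 kb, Bcl2l11 -34.4 kb and Bcl2l11 -40.3 kb.

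Values in plasma cells lay more often above than below C in KO. Both KO libraries lay above all 3 C libraries at 34 of 91 members (37.4%, against 20.0% of all regions) and below them at 14 (15.4%, against 13.8%). In nB the counts above and below were 12 and 8 (9.38% and 11% of all regions), and in GCB 6 and 4 (7.47% and 5.52%). The median log2 change of members from C to KO BMPC was 0.19, and that of all regions 0.03.

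Much of this lay upstream of Bcl2l11, in the introns of Acoxl. Of the 14 regions there, 13 had a positive log2 change from C to KO in BMPC, with a median of 0.80. At 11 both KO libraries lay above every C library (78.6%, against 20.0% of all regions). The other 7 Bcl2l11 regions had a median of 0.185, the 9 of Mcl1 0.28, the 8 of Bcl2l1 0.21 and the 34 of Bcl2 0.20. The 10 of Pmaip1 had 0.04, the 7 of Bbc3 -0.06 and the 2 of Bax -0.44. Both KO libraries also lay above every C library at 5 Mcl1 regions (55.6%), 3 of Bcl2l1 (37.5%) and 3 of the other Bcl2l11 regions (42.9%). At Bbc3 and Bax this held for 0. Summed over the 14 regions, C BMPC had 35.8 to 44.5 RPPM and KO BMPC 70.7 to 77.7, so the groups did not overlap. In nB the sums were 95 to 98.3 in C and 95.2 to 95.7 in KO, and in GCB 131 to 145 in C and 102 to 141 in KO. From C nB to C BMPC, 8 of the 14 were called lower and 0 higher (20.1% and 18% of all regions). In these sums, the KO plasma cells lay between C plasma cells and C naive cells. This stretch was singled out after its values were seen, and no test was made of it as a group.

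Single regions there showed the same at low levels. At -40.3 kb (chr2:127911301-127911688), C BMPC read 0.390, 0.365 and 1.09 RPPM and KO BMPC 2.79 and 4.11, while C and KO nB read 3.96 to 5.03. Both KO values lay above those of C, and the higher of them fell within the range of nB, with a log2 fold change of 1.48 (SE 0.34, limma adjusted p = 0.0337, edgeR quasi-likelihood adjusted p = 0.000406). At -34.4 kb (chr2:127917133-127917538), C BMPC read 2.60, 1.64 and 2.02 RPPM and KO BMPC 6.32 and 5.60 (log2 fold change 1.18, SE 0.29, limma adjusted p = 0.0476). Other members of the 8 were Bcl2l11 -19.9 kb and -47.0 kb, Bcl2l1 +36.0 kb and Pmaip1 -21.7 kb, with limma adjusted p of 0.219, 0.282, 0.0562 and 0.114. Upstream of Mcl1, the region at -4.9 kb (chr3:95457616-95457882) read 6.63, 7.30 and 5.92 RPPM in C BMPC and 14.1 and 18.3 in KO BMPC, above the 3.15 to 5.03 of all nB libraries (log2 fold change 1.17, SE 0.33, limma adjusted p = 0.0968).

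One of the 8, Bcl2l1 +28.2 kb (chr2:152627956-152628451), is uncertain because its reads may come from elsewhere. It read 2.34, 0.912 and 1.56 RPPM in C BMPC and 6.32 and 7.65 in KO BMPC (log2 fold change 1.65, SE 0.40, limma adjusted p = 0.0488), but a stretch of 253 bases (chr2:152628199-152628451) matched the mRNA of the ribosomal protein gene Rpl39 at 92.5% of positions. The study's methods give default mapping options for a Bowtie version other than that in the labels, so how reads with several matching places were treated is not settled here. The windows of both regions are printed to show this contrast: at Bcl2l11 -40.3 kb (chr2:127911345-127911644) capitals mark the only CG, and at Bcl2l1 +28.2 kb (chr2:152628054-152628353) they mark the part that matches Rpl39.
Bcl2l11 -40.3 kb: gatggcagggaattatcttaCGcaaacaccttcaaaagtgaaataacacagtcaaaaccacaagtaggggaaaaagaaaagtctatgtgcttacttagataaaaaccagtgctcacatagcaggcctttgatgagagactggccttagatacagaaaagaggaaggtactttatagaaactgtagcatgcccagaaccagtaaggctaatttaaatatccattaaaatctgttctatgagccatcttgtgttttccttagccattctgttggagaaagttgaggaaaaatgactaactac
Bcl2l1 +28.2 kb: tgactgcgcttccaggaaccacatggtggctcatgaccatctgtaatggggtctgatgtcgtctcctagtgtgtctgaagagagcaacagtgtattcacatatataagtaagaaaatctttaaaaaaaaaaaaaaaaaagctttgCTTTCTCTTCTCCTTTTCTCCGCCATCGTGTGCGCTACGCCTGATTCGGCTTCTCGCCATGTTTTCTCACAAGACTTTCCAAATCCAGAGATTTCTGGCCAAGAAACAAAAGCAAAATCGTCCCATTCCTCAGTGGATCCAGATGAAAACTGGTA

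**Figure D5:**
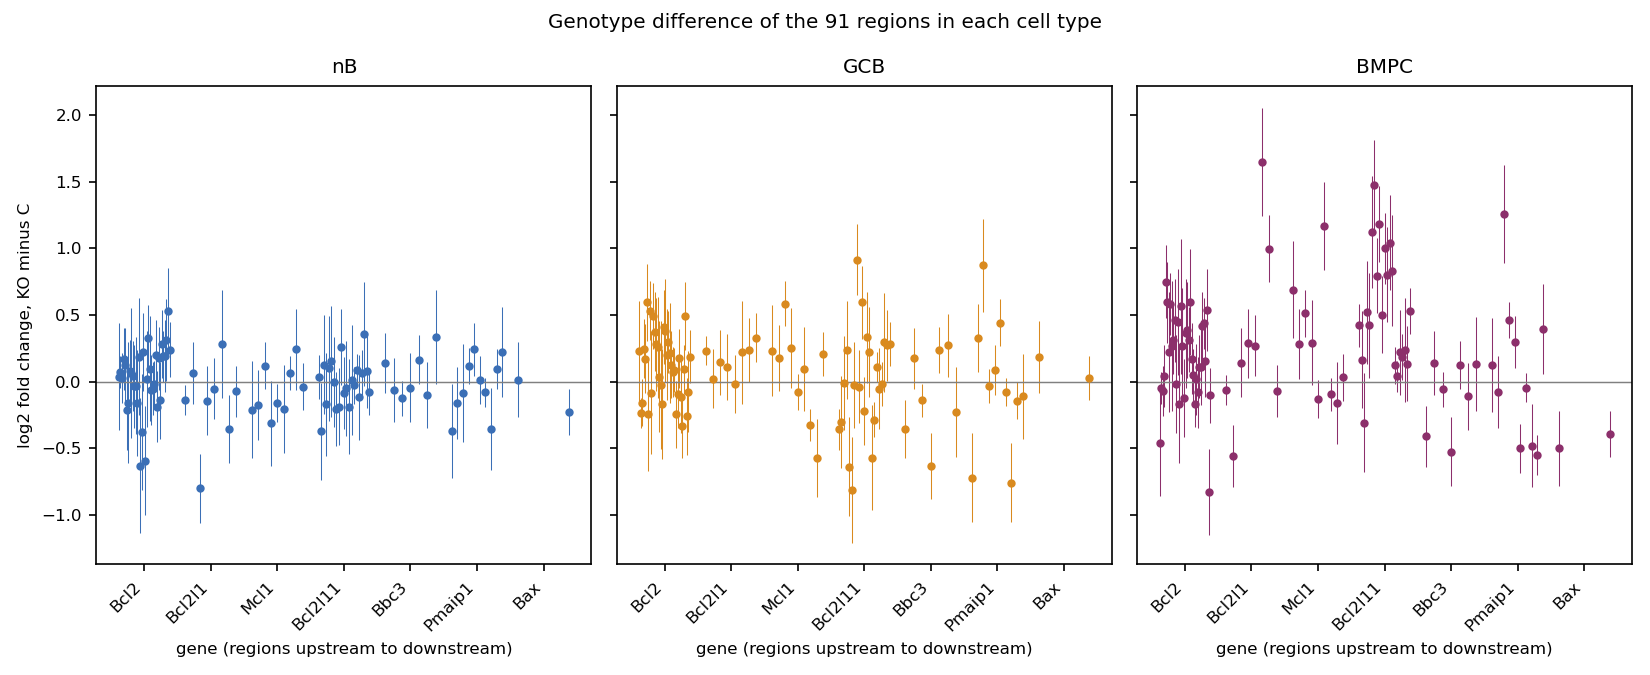
Log2 change from C to KO (± SE) of each of the 91 regions in nB, GCB and BMPC. Points are centred near 0 in nB and GCB, with medians of 0.00 and 0.09, and shifted up in BMPC, with a median of 0.19, most of all at Bcl2l11.

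No start region was called between genotypes. Bax was lower in both KO libraries of BMPC, at 25.4 and 25.2 RPPM against 31.2, 35.2 and 34.1 in C (log2 change -0.39, SE 0.17, adjusted p = 0.428). The Mcl1 start in GCB had 4 KO libraries of 30.1 to 39.6 RPPM, below the 43.1 and 42.2 of C (log2 change -0.32, SE 0.12, adjusted p = 0.262). For Bcl2 in BMPC the 95% interval of the log2 change ran from -0.29 to 0.20. In GCB the smallest p among members belonged to Mcl1 -7.9 kb, with 9.68 and 12.6 RPPM in C and 14.3, 18.5, 19.3 and 16.8 in KO (log2 change 0.59, SE 0.17, adjusted p = 0.138), and next was Bcl2l11 -38.8 kb, at 2.64 and 2.34 RPPM against 5.51, 5.09, 6.14 and 5.59 (0.91, SE 0.27, adjusted p = 0.145). In nB it belonged to Bcl2l1 +14.2 kb, with 3.17, 2.83 and 2.61 RPPM in C and 1.48 and 0.984 in KO (-0.80, SE 0.26, adjusted p = 1), followed by Bcl2 +198.4 kb (0.53, SE 0.32, adjusted p = 1).

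Other genes of the apoptosis pathway were read from a list of 35, of which 34 had regions, 156 in all. From C nB to C GCB, 33 were called higher and 6 lower, from C nB to C BMPC 32 and 26, and from C GCB to C BMPC 21 and 32, or 25%, 37.2% and 34.0% of them, near the 22.7%, 38.1% and 30.4% of all regions, and limma called 0 between genotypes within a cell type. Within the list, the 76 regions of other Bcl2 family genes had 21 higher and 0 lower from C nB to C GCB. The 80 of apoptosome, caspase and death receptor genes had 12 and 6. Of all regions, 14.2% were called higher and 8.47% lower in that comparison. The totals were 27.6% and 22.5%, against 22.7% of all regions. The largest change of the list from C nB to C BMPC belonged to a region assigned to Bcl2l14 but far from it (-170258 bases from its start, in an intron), which rose from a C mean of 1.12 RPPM in nB to 20.7 in GCB and 23.9 in BMPC. A region assigned to Apaf1, the core of the apoptosome, fell from C means of 19.8 and 18.2 RPPM in nB and GCB to 0.954 in BMPC. One assigned to Bmf, a BH3-only gene, fell from 26.3 and 14.9 to 2.23. Both lay far from these genes' starts, at 91888 and 28441 bases, and in no promoter or intron. A region assigned to Bcl2l15 (-8526 bases from its start, in an intron) rose instead, from 2.70 and 5.13 to 34.8. Regions of Bcl2a1b and Bcl2a1d, survival genes of a family of near-identical copies that can share reads, fell from 61.4 and 48.2 RPPM in nB to 4.74 and 3.79 in BMPC.

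Start regions of other genes that varied most like these were found by Pearson's r of log2(RPPM + 1) over the 16 libraries and 10447 genes, as a description, since points of 1 cell type share its depth and tissue. The closest were Cdkn1b for Bcl2 (r = 0.987), Hsd17b4 for Bcl2l1 (0.868), Suv420h1 for Mcl1 (0.983), Iqgap1 for Bcl2l11 (0.949), Rapgef3 for Bbc3 (0.976), Zfx for Pmaip1 (0.897) and Klhl11 for Bax (0.970). The weakest of these belonged to Bcl2l1 and Pmaip1, the starts that varied least.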

How the data were processed

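ATAC-seq was measured in 16 of 17 labelled samples. The remaining BMPC KO library was left out by the authors for its share of reads in peaks and was not analysed here. Per the labels, reads were mapped to mm9 with Bowtie 1.1.1 and peaks called with MACS2 2.1.0.20140616, with Picard 1.127 and edgeR 3.12.1. The study's methods name other versions of Bowtie and MACS2, and any shift of reads for the transposase is not given in the sources used here. Peaks of all samples at a q of 0.01 were merged by the authors, and the deposited values are RPM scaled to the reads in peaks (called RPPM), 1 column per library. Columns of the authors' own comparisons (fold changes, p-values) were not used. Whole reads were recovered from 100% of the values, to a tolerance of 1e-06 reads.

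Groups came from the labels. limma 3.58.1 (R 4.3.3) was fitted to log2(RPPM + 1) over all 66177 regions and 6 groups in 1 model with a mean-variance trend, for 9 pairwise comparisons and 3 interactions, with Benjamini-Hochberg adjustment over all regions. The fold changes understate the change of low regions. edgeR 4.0.16 on recovered reads was an alternative, beside pseudocounts of 0.1 and 5, a filter at a mean of 1 RPPM, scaling by TMM, a fit of the compared groups only, a replicate block and leaving out each library. Scripts were tested on simulated data. Intervals of log2 changes come from the standard errors of the limma fit and cover the spread between libraries. Floors and the intervals of the read ratios at Bbc3 +37.6 kb cover counting error only.

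The members and gene lists were chosen with earlier results of these data known. Named regions were those over the starts, the 4 called regions per gene with the largest fold change, and for genotype the 2 smallest p per cell type. Further regions were chosen after their values were seen: the 4 other members that only edgeR called in BMPC, the second Bax region, and those said so in the text. Sequences came from the mm9 genome. One marker gene and the full name of the Cre allele are not reported here.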

Additional observations from a re-analysis of the deposited data

Results flagged for a closer look

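The Bcl2l11 region at -34.4 kb, in an intron of Acoxl, had 1 library apart from its group: among the 4 KO GCB libraries replicate 4 read 7.69 RPPM and the others 5.51 to 5.73. The gap was 0.899 of the group's range, past Dixon's 95% critical value for 4 samples. It was the 1 flag among 36 named regions tested in that group, and chance flags about 1 in 20 groups.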

How the results depend on the processing

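Counts of members called between cell types stayed within 1.5 times of those reported under every setting but a pseudocount of 5 RPPM, which damps low regions and gave 14, 22 and 19 calls in C and 14, 23 and 23 in KO (nB to GCB, nB to BMPC and GCB to BMPC). Leaving out 1 library gave 22 to 25, 34 to 38 and 28 to 33 calls in C, 21 to 28, 29 to 33 and 28 to 39 in KO, and 0 for each genotype comparison and interaction. The genotype count in BMPC was 1 with only the compared groups, 6 with edgeR's quasi-likelihood test and 8 with its likelihood ratio test, and the interaction from nB to BMPC was 3 with the latter. The cause was not tested. A filter on a mean of 1 RPPM kept 90 of the 91 members. A replicate block by pool name in GCB gave 0 calls between genotypes. Deviations of same-named pools correlated at r = 0.06 and 0.092, so a name was not shown to pair libraries.

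Among start regions, 6 changes near 0 turned sign without 1 library. Without C GCB replicate 1, Bcl2l11 from GCB to BMPC was -0.12 (0.26 without replicate 2), Bbc3 from nB to GCB -0.032 (0.15), Pmaip1 from nB to GCB 0.016 (-0.18) and from GCB to BMPC -0.012 (0.18). From nB to BMPC, leaving out C nB replicate 2 gave -0.032 for Pmaip1 and -0.060 for Bax, without replicate 3 the values were 0.042 and 0.16, and Pmaip1 was -0.022 without C BMPC replicate 3. Depth limits low regions in GCB most, where 3 reads reached 3.30 RPPM.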

Other observations

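The 91 regions resembled others in the motifs they held. CAGCTG was found in 37.4% of members and 32.4% of all regions, GGAAGT in 40.7% and 43.2%, GAAAC in 71.4% and 72.6%, ATGCAAA in 16.5% and 13.2%, and the PU.1-IRF composite in 12.1% and 8.92%, with median widths of 559 and 511 bases. CG dinucleotides were dense at the 7 starts, with 66.7 to 102.5 per kb, and sparse elsewhere, with a median of 11.5 per kb over the other 84 members and 14.6 over all regions. Bcl2l1, whose start varied little, had a median of 9.47 CG per kb over its 8 regions, and Bbc3 18.5 over its 7.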
